A study of Homo sapiens with 4 samples.

Results

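The Krüppel-like factors (KLFs) are zinc finger transcription factors that bind GC-rich and CACCC-type elements in promoters and enhancers. The 10 KLF genes described here, KLF2, KLF3, KLF4, KLF6, KLF7, KLF9, KLF10, KLF11, KLF13 and KLF16, were taken by name out of 20037 protein-coding genes of the human annotation. The list is one of names and sets no threshold on a measured value. Acetylation of histone H3 at lysine 27 (H3K27Ac) was mapped by ChIPmentation, in which chromatin bound by the antibody is fragmented and tagged by the Tn5 transposase, in MOLM13 cells. MOLM13 is an acute myeloid leukemia cell line that carries a KMT2A (MLL1) fusion and an internal tandem duplication of FLT3. 1 library came from control cells (0 nM) and 1 library from cells treated with 500 nM of the menin inhibitor SNDX-50469, both at 16 hours, and 2 input libraries complete the series and were not used here. Both conditions were the same cell line in bulk culture, so that a loss of the mark in every cell and its loss in a fraction of the cells cannot be told apart.

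H3K27Ac marks active promoters and enhancers, and menin is the adaptor that holds KMT2A and its fusion proteins on their target genes. Within the family, KLF4, KLF2 and KLF6 are the members best known in myeloid cells: KLF4 promotes monocyte differentiation, KLF2 restrains the activation of monocytes and is induced through the ERK5 and MEF2 route, and KLF6 is an early response gene of macrophages. KLF3 recruits the CTBP co-repressors. KLF9, KLF10, KLF11, KLF13 and KLF16 recruit SIN3A and its histone deacetylases, and KLF10 and KLF11 were first known as genes induced by TGF-beta. KLF7 is widely expressed and is known best from neurons and blood progenitors.

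Each library was given as a list of peaks, and with 1 library per condition there was no replicate, no test and no p-value. For each gene, the covered length was the number of bases under peaks from 5 kb before to 5 kb after the gene (hg38), and the kept share was the percentage of the control covered length that was also under a peak after treatment. The control list held 245875 peaks over 224 Mb, and the SNDX-50469 list held 54061 peaks over 29.4 Mb. Of the control peaks, 8.24% shared at least 1 base with a peak of the treated list. The weakest control peak had a -log10 p of 2.68 and the weakest treated peak one of 3.93. A control peak below 3.93 thus had no counterpart of its own strength to be matched with. It could still share bases with a stronger treated peak. Of the 20257 control peaks that shared at least 1 base, 12912 were at or above 3.93. The read depth of the libraries was unknown, and its part in the lower coverage was not tested.

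In control cells all 10 KLF genes carried H3K27Ac peaks, as did 15634 of the 20037 protein-coding genes over the gene and 5 kb. Of the 8 KLF genes outside the list, 4 did. All 10 listed genes had a shorter covered length over that window after SNDX-50469. A shorter covered length was found for 98.1% of the 15634 genes that had any control peak there, so that this direction was that of nearly every gene. The KLF genes differed in how much was kept. KLF16, KLF10, KLF9 and KLF6 kept between 23.6% and 62.9% of their covered length, KLF7 and KLF13 kept 12.6% and 11.4%, and KLF2, KLF3, KLF4 and KLF11 kept none. A kept share of 0 was found for 44.8% of all genes tested. No treated peak at all lay over those 4 KLF genes and their 5 kb, as for 35.6% of all genes tested. Over the 10 KLF genes, 44372 of 207253 control bases were kept, which is 21.4%, beside 11.6% over all genes. Of these 44372 kept bases, 18834 came from KLF16, which held 29934 of the 207253 control bases. The window of KLF16 also takes in parts of REXO1 and ABHD17A. The share without KLF16 was not computed, so that the higher summed share may rest largely on that window. The median kept share of the 10 KLF genes was 12.0% beside 2.37% over all genes. Of the 124 control peaks of the 10 KLF genes, 17 were kept, which is 13.7%, beside 8.24% of the whole control list. The 95% Wilson interval of the 13.7%, for counting error only, ran from 8.74 to 20.9%. The interval takes the peaks as independent, although 43 of them lay at KLF13, so that it may be too narrow.

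**Figure D1:**
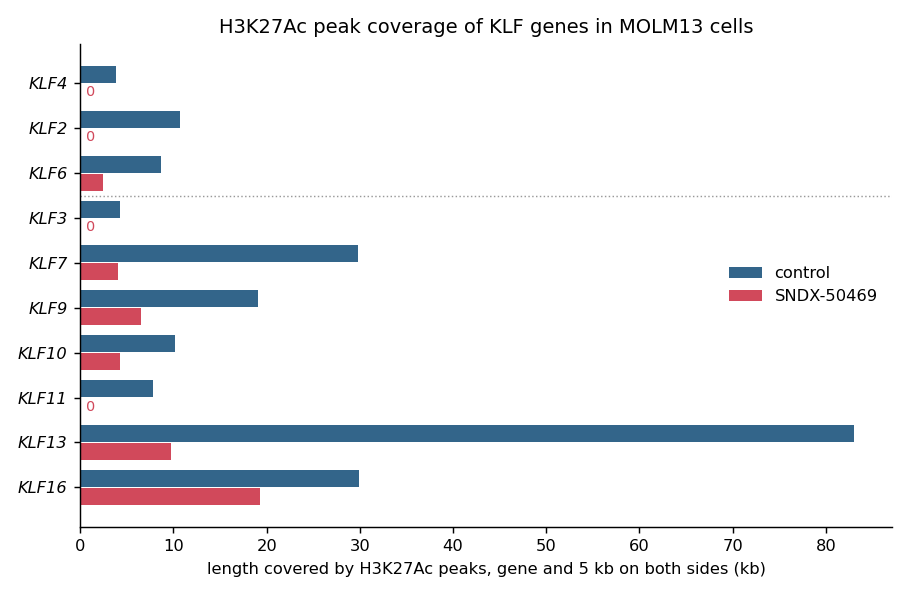
Length in kb covered by H3K27Ac peaks over each KLF gene with 5 kb added at each end, in control cells (blue) and after SNDX-50469 (red), 1 library each, with no error bars. KLF4, KLF2, KLF3 and KLF11 have no treated coverage, and KLF16 has the longest treated coverage, 19250 bases in 10 peaks.

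The promoters of 6 of these genes are printed as the 250 bases before the outermost listed start of transcription, because they set genes with no treated peak (KLF2, KLF4 and KLF11) beside genes whose start lay under a treated peak (KLF6, KLF9 and KLF16). The outermost start of KLF7 also lay under a treated peak, and its promoter is not printed. The sequences are from RefSeq (GRCh38.p14) and run 5′ to 3′ along the transcript, and capitals mark the GC box GGGCGG or its complement CCGCCC. They lie at chr19:16324576-16324825 (plus strand), chr9:107489770-107490019 (minus strand), chr2:10043579-10043828 (plus strand), chr10:3785210-3785459 (minus strand), chr9:70414658-70414907 (minus strand) and chr19:1863580-1863829 (minus strand).
KLF2: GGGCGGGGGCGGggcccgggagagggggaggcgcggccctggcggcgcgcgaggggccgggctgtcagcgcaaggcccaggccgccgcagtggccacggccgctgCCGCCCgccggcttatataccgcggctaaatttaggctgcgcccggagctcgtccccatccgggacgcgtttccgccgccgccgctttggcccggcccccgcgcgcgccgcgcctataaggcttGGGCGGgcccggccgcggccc
KLF4: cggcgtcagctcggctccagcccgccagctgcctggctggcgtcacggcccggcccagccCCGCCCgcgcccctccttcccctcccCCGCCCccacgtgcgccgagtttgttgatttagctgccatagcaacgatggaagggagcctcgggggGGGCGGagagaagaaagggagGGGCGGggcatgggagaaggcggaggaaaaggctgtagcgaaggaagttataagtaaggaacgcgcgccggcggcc
KLF11: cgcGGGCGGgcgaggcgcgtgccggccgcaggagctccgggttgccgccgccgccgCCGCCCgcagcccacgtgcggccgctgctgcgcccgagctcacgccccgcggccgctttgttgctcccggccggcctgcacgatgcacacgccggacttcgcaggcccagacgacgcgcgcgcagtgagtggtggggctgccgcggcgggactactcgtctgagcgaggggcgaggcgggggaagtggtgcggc
KLF6: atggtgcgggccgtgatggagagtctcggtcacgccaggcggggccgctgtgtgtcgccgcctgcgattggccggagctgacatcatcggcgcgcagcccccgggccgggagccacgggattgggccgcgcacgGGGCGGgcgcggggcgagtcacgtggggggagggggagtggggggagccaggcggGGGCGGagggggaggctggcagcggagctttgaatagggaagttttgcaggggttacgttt
KLF9: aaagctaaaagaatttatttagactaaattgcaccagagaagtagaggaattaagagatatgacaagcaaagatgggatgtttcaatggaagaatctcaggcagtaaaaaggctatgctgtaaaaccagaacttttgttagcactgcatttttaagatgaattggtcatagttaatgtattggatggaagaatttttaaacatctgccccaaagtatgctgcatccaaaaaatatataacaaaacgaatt
KLF16: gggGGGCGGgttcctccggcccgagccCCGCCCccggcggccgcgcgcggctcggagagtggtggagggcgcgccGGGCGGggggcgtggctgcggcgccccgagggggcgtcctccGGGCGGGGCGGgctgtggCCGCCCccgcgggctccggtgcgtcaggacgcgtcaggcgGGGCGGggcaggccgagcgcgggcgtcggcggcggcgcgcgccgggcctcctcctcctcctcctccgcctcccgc

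The promoter table matched 8 of the 10 KLF genes, without KLF3 and KLF10. Overlapping matches were each counted. The GC box was found at the outermost start of 6 of these 8 genes, and 53.7% of 22199 promoters of protein-coding genes held it in the same 250 bases. KLF16 had 7 matches, KLF2 and KLF4 had 4 each, KLF13 had 3, and KLF6 and KLF11 had 2 each. The CACCC elements CCACACCC and CCCCACCC, searched on both strands, were in none of the 8 outermost windows, and they were in 3.13% and 12.0% of all promoters. An inner start of KLF7 had 4 GC box matches, and another had 2 matches to CCCCACCC. The 250 bases of KLF16 were 86.4% G and C, those of KLF2 80.0%, those of KLF4 69.2%, those of KLF7 43.2% and those of KLF9 32.4%, beside a median of 62.0% over all promoters. Genes with GC-rich promoters thus stood both among those with no treated peak and among those that kept the start. The outermost starts of KLF9 and KLF7 were kept beside windows with no GC box.

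KLF4 had the shortest control coverage of the 10 genes. KLF4 (chr9:107484852-107489769, minus strand) had 8 control peaks over 3876 bases and no treated peak. Its strongest control peak, 1132 bases long, began 9526 bases downstream of the start, beyond the end of the gene, with a fold enrichment over the library's own background of 3.66 and a -log10 p of 4.44. A control peak of 179 bases lay 134 bases downstream of the start. The peaks at KLF4 were thus short, and most of the control coverage was downstream of the gene. The absence after treatment reached far: from 100 kb before to 100 kb after KLF4, the control list covered 27374 bases with 44 peaks and the treated list held no peak. The nearest treated peak was 124453 bases from the start. A kept share of 0 over the gene and 100 kb was found for 22.3% of the 18602 genes with a control peak there. No other protein-coding gene lies within those 100 kb.

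KLF2 was densely covered in control cells. KLF2 (chr19:16324826-16328685, plus strand) had 9 control peaks over 10653 bases, 76.9% of its window, and no treated peak. A control peak of 3605 bases ran from 23 bases downstream of the start across 93.4% of the gene, with a fold enrichment of 4.42 and a -log10 p of 5.87. The next peak upstream, 2581 bases long, ended 391 bases before the start. The nearest treated peak lay 28588 bases from the start of KLF2. Over the gene and 100 kb, 92 control peaks covered 111523 bases, and 16 treated peaks covered 7305 bases, of which 6652 were shared. Of these 16 treated peaks, 10 lay over EPS15L1, the neighbouring gene that codes for an endocytic adaptor, and 1 over AP1M1.

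KLF6 kept its start. KLF6 (chr10:3775996-3785209, minus strand) had 9 control peaks over 8684 bases and 1 treated peak of 2416 bases, of which 2046 were shared. The treated peak ran from 1448 bases upstream to 967 bases downstream of the start. It joined the positions of the 2 strongest control peaks, of 1889 and 2961 bases, which stood on either side of the start with -log10 p values of 7.35 and 7.04. The other 7 control peaks of KLF6 were not kept. Within 1 kb of its start KLF6 kept 98.0% of the control covered length, and over the remainder of its window 6.35%. The treated peak had a -log10 q of 2.42, and with peaks of -log10 q of at least 5 alone in both lists KLF6 kept nothing.

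Together KLF4, KLF2 and KLF6 kept 2046 of 23213 control bases, which is 8.81% and came from KLF6 alone, and the other 7 genes kept 42326 of 184040, which is 23.0%. Among the other 7 genes, KLF16 alone held 18834 of the 42326 kept bases and 29934 of the 184040 control bases. The difference between the groups may rest in part on that window, and was not computed without it. With KLF16 included, the difference was -14.2 percentage points, and with 1 library per condition it had no replicate error to be set against. An interval for counting error alone ran from -25.3 to 4.08 percentage points, so that the sign of the difference was open. It was approximate, since it used shares of bases with the number of control peaks as sample size. It also took the peaks as independent, although 43 of them lay at KLF13, and may be too narrow. As a share of control peaks with at least 1 base kept, in place of a share of bases, the difference was -7.61 percentage points. As a share of control peaks with at least 50% of their length covered after treatment, it changed sign to 0.785 percentage points. Without KLF10 the difference was -13.4 percentage points. Among control peaks as strong as the weakest treated peak, 2 of 11 were kept at KLF4, KLF2 and KLF6 and 15 of 29 at the other 7 genes, beside 28.4% of the 45451 such peaks in the whole control list.

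**Figure D2:**
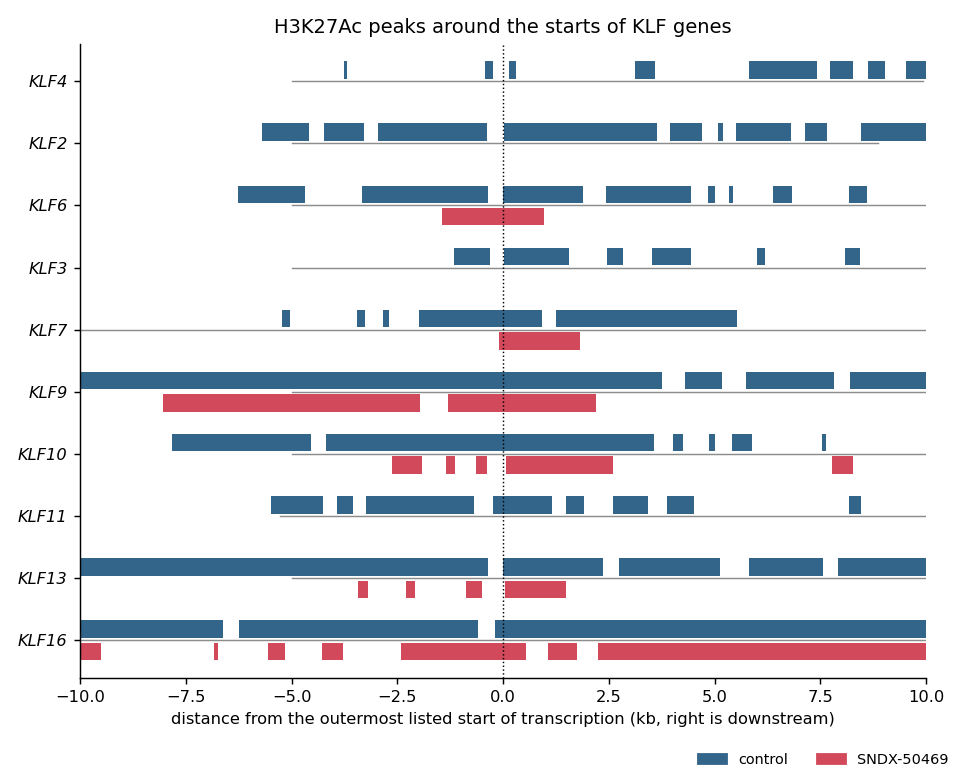
Peaks of the control list (blue) and the SNDX-50469 list (red) within 10 kb of the outermost listed start of each KLF gene, by distance in kb along the transcript, the grey line marking the gene and its 5 kb. Treated peaks lie at or next to the starts of KLF6, KLF7, KLF9, KLF10, KLF13 and KLF16, and none lies in the rows of KLF4, KLF2, KLF3 and KLF11.

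KLF3 and KLF11 were the other genes with nothing kept, and they differed in the strength of their control peaks. KLF3 (chr4:38664199-38701517, plus strand) had 7 control peaks over 4288 bases, 9.06% of its window, and no treated peak. Its strongest control peaks lay on either side of the start, with -log10 p values of 4.37 and 3.65. Over KLF3 and 100 kb, 29 control peaks and 1 treated peak were found, and the treated peak, of 215 bases, shared no base with them.

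KLF11 (chr2:10043550-10054836, plus strand) had 9 control peaks over 7833 bases and no treated peak. The strongest covered 1381 bases from 233 bases upstream to 1147 bases downstream of the outermost start, with a fold enrichment of 7.19 and a -log10 p of 12.6. It ranked 1734 of the 245875 control peaks, and 1662 of the 1734 control peaks at least as strong, or 95.8%, were kept. The peak at KLF11 was among the 72 that were not. By contrast, of the control peaks at least as strong as the strongest at KLF2, KLF4 and KLF3, 66.8%, 40.6% and 38.9% were kept. These shares take in all stronger peaks. They are not the share kept among peaks of about that strength, which was not computed. The nearest treated peak lay 14398 bases from the outermost start of KLF11. Over KLF11 and 100 kb, 5 treated peaks covered 4744 bases, and 3883 of these lay over RRM2, which codes for a subunit of ribonucleotide reductase. CYS1 lies 1636 bases from KLF11, inside its window.

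**Figure D3:**
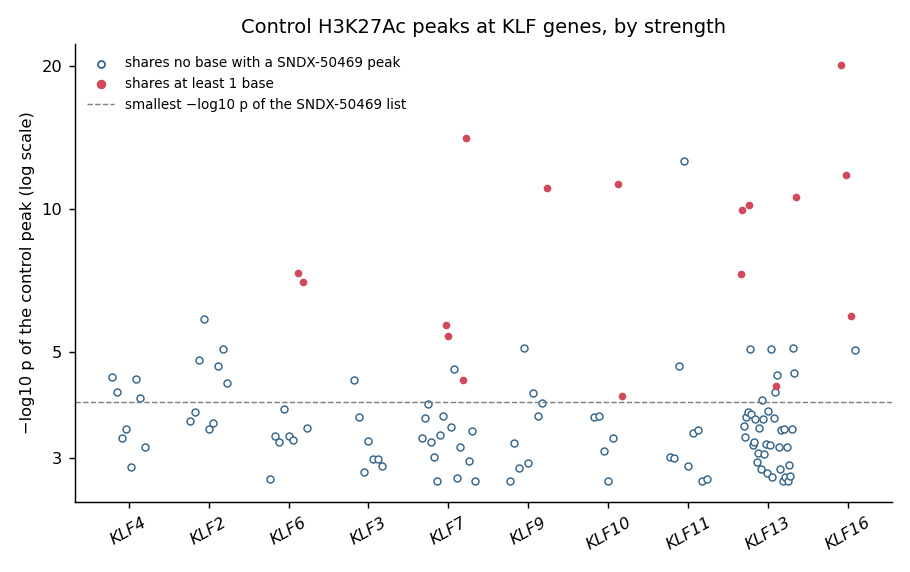
The -log10 p (log scale) of each control peak over the KLF genes and 5 kb, 1 point per peak, filled red where it shared at least 1 base with a SNDX-50469 peak and open where it did not, with the dashed line at 3.93, the smallest value of the treated list. No KLF peak below the line was kept. In the whole control list some peaks below it were kept, but most were not. The peak at KLF11 with a -log10 p of 12.6 is the strongest KLF peak that was not kept.

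KLF16 kept the largest share of the 10 genes. KLF16 (chr19:1852399-1876536, minus strand) had 4 control peaks over 29934 bases and 10 treated peaks over 19250 bases, of which 18834 were shared, so that 62.9% was kept, a higher share than at 98.8% of the genes tested. A control peak of 19989 bases covered the start and all bases downstream within the window. It had a fold enrichment of 9.89, a -log10 p of 20.1 and rank 248 in the control list. After treatment the longest peak there had 11079 bases, a fold enrichment of 7.44 and rank 157 in the treated list. Fold enrichments and ranks are relative to each library and its own list, so that these values are not a change. The number of peaks was higher and the covered length lower after treatment, with several shorter treated peaks inside 1 long control peak. REXO1 and ABHD17A, 3915 and 273 bases from KLF16, lie partly inside this window, so that its coverage cannot be assigned to KLF16 alone. On chromosome 19 the treated list covered 16.0% of the length that the control list covered, the highest share after chromosome 8. The part of the chromosome in the KLF16 values was not tested.

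KLF9 and KLF10 kept 34.3% and 36.6%. KLF9 (chr9:70384604-70414657, minus strand) had 9 control peaks over 19050 bases and 2 treated peaks over 6540 bases within the window, all of them shared. Both treated peaks, of 6080 and 3515 bases, lay inside the same control peak of 17490 bases, which ran from 13726 bases upstream to 3763 bases downstream of the start and had a -log10 p of 11.1. All of the control coverage within 1 kb of the start of KLF9 was kept, and the other 8 control peaks were not kept.

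KLF10 lies on chromosome 8, where the treated list covered 39.6% of the length that the control list covered, beside 6.91% to 16.0% on every other chromosome. KLF10 (chr8:102648784-102655725, minus strand) had 7 control peaks over 10145 bases and 5 treated peaks over 4220 bases, of which 3717 were shared, which is 36.6%. The strongest treated peak, of 2549 bases, began 58 bases downstream of the start, inside a control peak of 7751 bases. Over KLF10 and 100 kb, 107 control peaks and 77 treated peaks were found, and 15 of the treated peaks shared no base with the control list. KLF10 alone thus held 77 of the 174 treated peaks over the 10 KLF genes and 100 kb, and the part of its chromosome in the KLF10 values was not tested. Without KLF10 the remaining 9 genes kept 20.6% of their control covered length.

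KLF13 and KLF7 were long genes with many control peaks, and their kept shares, 11.4% and 12.6%, lay on either side of the median of the 10 genes. KLF13 (chr15:31326835-31435665, plus strand) had 43 control peaks over 83002 bases, a longer control coverage than at 98.7% of the genes tested, and 16 treated peaks over 9705 bases, of which 9490 were shared. Its 3 strongest control peaks were all kept in part. They lay at the start (2352 bases, -log10 p 9.95), inside the gene (23478 bases, -log10 p 10.2) and across its end (11546 bases, -log10 p 10.6), and 61.4%, 18.1% and 22.7% of their lengths were covered after treatment. Within 1 kb of its start KLF13 kept 82.6% and over the remainder of its window 10.00%.

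KLF7 (chr2:207074137-207173851, minus strand) had 19 control peaks over 29788 bases and 7 treated peaks over 4077 bases, of which 3745 were shared. The strongest treated peak of KLF7, of 1907 bases, ranked 80 in the treated list with a fold enrichment of 8.37, and the strongest control peak ranked 1135 with 7.46. These were peaks at the same start, each measured against its own library's background, so that the 2 fold enrichments are not a change. The treated peak lay over 3 of the 4 listed starts of KLF7. The start farthest downstream was under a control peak and lay 3826 bases from a treated peak. A control peak of 12404 bases inside the gene kept 1625 bases.

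**Figure D4:**
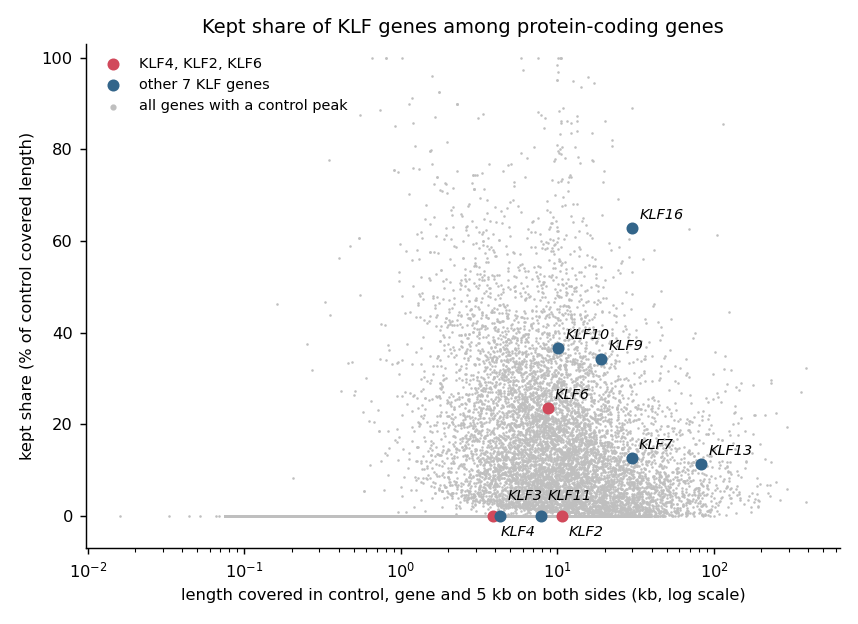
Kept share in percent against the length covered in control in kb (log scale) with 5 kb added at each end of the gene, for 15634 protein-coding genes (grey) and the KLF genes (KLF4, KLF2 and KLF6 in red, the other 7 in blue). KLF16 lies above 98.8% of the genes, and KLF2, KLF3, KLF4 and KLF11 lie at 0, as do 44.8% of all genes.

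The kept share of the KLF genes was higher close to their starts. Within 1 kb of the listed starts, 47.0% of the 18890 control bases were kept, and over the remainder of the windows 18.8%. The share within 1 kb over all genes was 33.5%. The control coverage within 1 kb was kept in part at 6 of the 10 KLF genes, namely KLF6, KLF7, KLF9, KLF10, KLF13 and KLF16, as at 50.6% of the 12100 genes with a control peak there. KLF9 kept 100% there, KLF6 98.0%, KLF13 82.6%, KLF16 70.9%, KLF10 61.0% and KLF7 33.4%. Within 5 kb of the starts the share was 29.6%, beside 16.4% over the remainder and 19.7% within 5 kb of the starts of all genes. Each of the 6 genes with coverage kept at the start kept a higher share there than over the remainder, with the shares of KLF16 (70.9% and 62.5%) nearest to each other. KLF2, KLF3, KLF4 and KLF11 kept none in either.

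Over wider windows the KLF genes drew closer to the other genes. Over the gene and 100 kb, the 10 KLF genes kept 13.7% of 745704 control bases and all genes 11.8%, with medians of 9.23% and 6.76%. KLF4, KLF2 and KLF6 together kept 5.75%, and the other 7 genes 16.2%. KLF16 kept 30.8%, KLF10 20.0%, KLF11 14.2% and KLF9 12.5%, KLF13 kept 9.33%, KLF6 9.13%, KLF7 7.89% and KLF2 5.96%, and KLF3 and KLF4 kept none. From 5 kb to 100 kb the share was lower at 6 genes and higher at KLF2 and KLF11, which kept nothing within 5 kb.

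**Figure D5:**
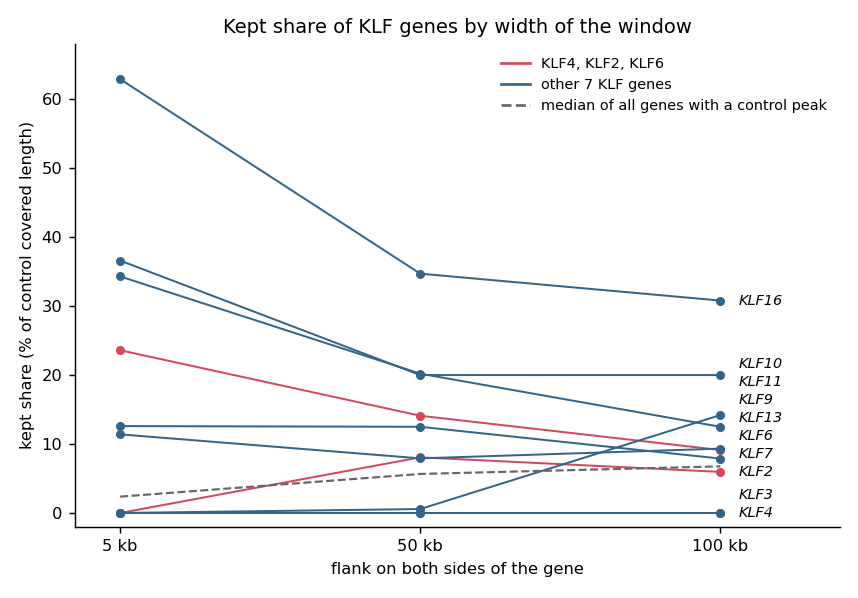
Kept share in percent of each KLF gene with 5, 50 or 100 kb added at each end of the gene, with the median of all genes with a control peak as a dashed line. The shares range from 0 to 62.9% at 5 kb and from 0 to 30.8% at 100 kb, and the lines of KLF3 and KLF4 coincide at 0.

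Among the other 8 KLF genes, 4 had a control peak and 3 of these kept nothing. KLF1, the erythroid member, kept 30.9% of 10660 bases, and KLF15 and KLF17 kept none of 8317 and 6979 bases. Of the 9 SP genes, which code for the related Sp1 family, 7 had a control peak and 2 of these kept nothing, and SP1, SP3 and SP2 kept 18.4%, 25.1% and 14.0%. All 6 co-repressor genes had control peaks and 1 kept nothing. The CTBP genes that KLF3 works with, CTBP2 and CTBP1, kept 7.16% of 38267 and 20.0% of 18796 bases, and SIN3A kept 59.4% of 9663. All 5 genes of the ERK5 route, which induces KLF2 and KLF4, kept some coverage: MEF2C kept 6.46% of 120872 bases, MEF2D 42.2% of 43817 and MAP2K5 3.56% of 21510. Each gene of these lists with a control peak had a lower covered length after treatment, as 98.1% of all genes did. Nothing was kept at 44.8% of all genes with a control peak, and the counts in these short lists were not tested against that share.

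Marker genes of myeloid cells, the labelled lineage, carried the mark. All 8 myeloid markers (SPI1, CEBPA, CEBPB, CD33, LYZ, CSF1R, FLT3 and MEIS1) had peaks in both lists, with a median control covered length of 24266 bases. Of the 13 markers of lymphoid, erythroid, liver and epithelial cells, 10 had a control peak and 4 a treated peak, with a median control covered length of 455 bases. The longest of these, CDH1, had 18346 bases in control and 636 after treatment.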

How the data were processed

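H3K27Ac was mapped by ChIPmentation in MOLM13 cells, 1 control and 1 SNDX-50469 library, each deposited by the authors as a broad peak list on hg38. Per the labels, the submitters' processing notes name Trim Galore 0.6.5, Bowtie2 2.3.4.2, Picard 2.9.0 and MACS2 2.1.2, whereas the study's methods name TopHat2 for alignment. The options of the peak calling and the use of the inputs are not given in the sources used here. The deposited columns hold a score (10 times -log10 q), a fold enrichment (ratio over the library's own background), -log10 p and -log10 q for each peak. Fold enrichments were not compared between the lists. No read totals were given, so depth is unknown.

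Gene positions (20037 protein-coding genes) and starts were taken from RefSeq tables of GRCh38.p14. KLF3 and KLF10, absent from the promoter table used here, were given the outer end of the gene, with strand by symbol from GENCODE. Peaks and bases over each gene and 5, 50 and 100 kb were counted, and control peaks overlapping a treated peak by at least 1 base counted as kept. All listed KLF genes were named, and of the other lists the 3 genes with the longest control coverage. The members and lists were chosen with earlier results of these data known. The code was tested on simulated peaks (Python 3.11.15, numpy 2.4.6, pandas 2.3.3, scipy 1.17.1).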

Additional observations from a re-analysis of the deposited data

How the results depend on the processing

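No paired analysis was possible because there was 1 library per condition, and for the same reason no library could be left out. The number of KLF genes with nothing kept was 4, and it was 2 both over the gene and 50 kb and over the gene and 100 kb. With -log10 q of at least 5 in both lists, KLF2, KLF3 and KLF4 had no control peak left, and KLF6, KLF11 and KLF13 kept nothing. The median kept share of these 7 genes was 32.9%, and the difference of KLF6 from the other 6 was -26.8 percentage points. With the control list trimmed to its strongest peaks over the treated length (3632 peaks, 93.0% of them kept), 6 KLF genes had a control peak, with a median kept share of 41.2%. A lower covered length was then found for 5 of these, 1 gene (KLF11) kept nothing, the share within 5 kb of the starts was 58.4%, and no difference between the groups could be had, since KLF2, KLF4 and KLF6 had no control peak left. Counted as control peaks with at least 1 base kept, the difference between the groups was -7.61 percentage points. Counted as control peaks with at least 50% of their length covered, the median share was 0 and the difference changed sign to 0.785 percentage points. Within 1 kb of the starts the share was 47.0%. The kept share of single genes under these alternatives ranged from 25.0 to 77.5% at KLF16, 11.1 to 74.6% at KLF9, 0 to 57.9% at KLF10, 0 to 42.2% at KLF6, 0 to 34.4% at KLF7 and 0 to 21.2% at KLF13. KLF2, KLF3, KLF4 and KLF11 had no treated peak within 5 kb, so that within 5 kb no stricter list could give them another value than 0. The treated list begins at a higher -log10 p than the control list, and the part of read depth in this was not tested. Of 40 KLF control peaks at or above the smallest -log10 p of the treated list, 17 were kept. The share was 28.4% of the 45451 such peaks in the whole control list. Of the KLF control peaks below that value none was kept. In the whole control list 20257 of 245875 peaks were kept, 12912 of them among the 45451 at or above that value. Most control peaks below that value were thus not kept in the whole list either.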
